A study of Mus musculus with 2 samples.

Results

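Interferon-low classical monocytes made up 941 of the 21998 CD45-positive cells that passed quality limits, 531 of them under DMSO and 410 under STK. The cells were chosen by their own UMIs (unique molecular identifiers, which count captured RNA molecules). A member held at least 2 UMIs of Ly6c2, at least 3 of Lyz2 and at least 2 of F13a1, Vcan, Chil3 and Ccr2 together. It held fewer than 5 UMIs of the interferon-induced genes Ifit1, Ifit2, Ifit3 and Rsad2 together, at most 2 of C1qa, C1qb and C1qc, at most 1 of Cd209a, and none of Ace, Cd3d, Cd3e, Cd3g or Siglech. The cells came from hepatocellular carcinomas in the livers of mice labelled MYC-ON, given either STK or DMSO by gavage. Both groups carried the MYC-ON genotype and the same batch label, and each group was 1 droplet library of live, CD45-sorted cells. The labels used here name neither the transgene's promoter, the dose, nor the age, sex and number of the animals, and say nothing more of what STK is. With 1 library per group there was no replicate check, so no p-value is given, and every interval is a 95% interval that covers counting error only.

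Classical monocytes leave the bone marrow through the chemokine receptor Ccr2, enter inflamed tissue and tumours, and there can become macrophages or dendritic-like cells. A separate branch turns them into non-classical, vessel-patrolling monocytes under the transcription factor Nr4a1. Immediate-early genes such as Fos and Jun are switched on within minutes of a stimulus, tissue dissociation included, and MHC class II genes are gained as monocytes turn into antigen-presenting cells.

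The results turn on 2 groups of genes, and promoters from each are shown. MHC class II genes separated the members from each other. The immediate-early genes Fos, Atf3 and Jun were lower in STK members. The wider immediate-early list was split, with 9 of 25 measured genes at least 1.5-fold lower and 7 at least 1.5-fold higher. Each line gives the 100 bases before the transcription start, 5′ to 3′, from RefSeq on GRCm38.p6. Capitals mark an exact match on either strand to the Y box letters CTGATTGG, bound by NF-Y, in the MHC class II genes, or to the cyclic AMP response core TGACGT in the immediate-early genes.
H2-Aa, chr17:34287824-34287923, minus strand: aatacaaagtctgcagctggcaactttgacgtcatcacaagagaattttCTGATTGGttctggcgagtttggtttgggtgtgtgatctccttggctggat
H2-Eb1, chr17:34305767-34305866, plus strand: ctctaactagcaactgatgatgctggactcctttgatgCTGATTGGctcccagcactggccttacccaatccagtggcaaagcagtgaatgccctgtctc
H2-DMb1, chr17:34153091-34153190, plus strand: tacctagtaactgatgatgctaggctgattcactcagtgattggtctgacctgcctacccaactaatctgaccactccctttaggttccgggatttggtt
Fos, chr12:85473790-85473889, plus strand: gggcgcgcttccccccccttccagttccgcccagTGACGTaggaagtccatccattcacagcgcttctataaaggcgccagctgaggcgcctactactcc
Atf3, chr1:191183334-191183433, minus strand: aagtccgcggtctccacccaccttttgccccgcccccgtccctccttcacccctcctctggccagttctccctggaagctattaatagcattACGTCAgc
Jun, chr4:95052223-95052322, minus strand: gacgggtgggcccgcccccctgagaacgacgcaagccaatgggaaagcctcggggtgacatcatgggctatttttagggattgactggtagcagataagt

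The Y box letters were in the 250 bases upstream of 3.83% of 32851 promoters, and in 2 of the 12 MHC class II and dendritic genes with a promoter in the table. The letters TGACGT were upstream of 6.47% of all promoters and of 8 of 22 genes in the immediate-early list. The 8 genes were Fos, Atf3, Btg2, Dusp1, Dusp5, Egr2, Maff and Nr4a3. Of these, Fos, Atf3 and Dusp1 were lower in STK members, while Dusp5 and Nr4a3 were higher. Directions of Btg2, Egr2 and Maff are not given here. For both motifs the background counts promoters, while a listed gene counted if any of its promoters matched. The 2 kinds of share therefore differ in unit. H2-DMb1 and Jun held no exact match in the stretches shown. The H2-Aa stretch also holds TGACGT, left in lower case because this core was marked only in the immediate-early genes. How often it lies upstream of MHC class II genes was not counted. A match describes letters, not a bound site.

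The libraries were similar in depth. DMSO members had a median of 5061 UMIs and 1876 genes, and STK members 5920.5 UMIs and 2074.5 genes. Summed over members, the libraries held 2991555 and 2873917 UMIs. The cells scored by Xist as female or by Y-linked genes as male were mixed in unequal parts. Of the 274 DMSO members that could be scored 14.6% were female, and of the 238 STK members 75.2%. Sexes stand for different animals in unknown number, and at the level of whole libraries sex and treatment cannot be told apart, so values within each sex are given below. The libraries shared 203 barcodes, and 1 barcode was a member in both.

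The label of a classical monocyte fits the measured markers. Plac8, the one listed marker that the rule did not use, stood at 2957 CPM (a gene's UMIs scaled to a fixed total of all the cells' UMIs, 1e+06) in DMSO members and 2748 CPM in STK members, and after thinning each cell to 2000 UMIs it was seen in 92.2% and 89.5% of members against 15.6% and 18.1% of T cells. It did not set members apart from neighbouring monocytes. Plac8 stood at 3372 and 3325 CPM in interferon-high classical monocytes and at 2516 and 2449 CPM in non-classical monocytes. Chil3, a chitinase-like secreted protein, stood at 1478 and 1220 CPM in members and at 72.1 and 60.8 CPM in all other cells. F13a1, the coagulation factor XIII subunit, stood at 512 and 385 CPM, 25.7 and 24.0 times its level in all other cells. Both genes belong to the rule, so this contrast is a description. Beyond the rule, haptoglobin (Hp) stood at 727 and 539 CPM in members against 47.9 and 35.9 CPM elsewhere, and the guanine deaminase gene Gda at 329 and 207 CPM against 30.7 and 17.1 CPM. Hp was closer in the neighbouring monocytes, at 449 and 308 CPM in interferon-high classical and 324 and 285 CPM in non-classical cells. Ly6c2 has close paralogs whose reads the authors' counting could split.

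RNA of other cell types was present in a minority of members. The genes of neutrophil granules Ngp, Camp and Lcn2 lead the list of genes highest in members, yet Ngp was detected in only 12 DMSO and 9 STK members. Members with at least 50 UMIs of neutrophil markers numbered 16 and 11, those with at least 50 UMIs of hepatocyte or tumour RNA 9 and 10, and those with at least 5 UMIs of NK cell markers 10 and 16. Altogether 41 DMSO members (7.72%) and 43 STK members (10.5%) held RNA of another cell type by these or the T and B cell limits. Cd3d, Cd3e and Cd3g were at 0 by the rule, the summed T cell markers stood at 55.2 and 52.5 CPM, and the summed B cell markers at 111 and 103 CPM. Other sums were larger: neutrophil markers at 4973 and 5967 CPM, hepatocyte or tumour RNA at 2048 and 2646 CPM, and NK cell markers at 172 and 394 CPM. The 5 cells with most neutrophil marker UMIs held 50.3% of them in DMSO and 67.4% in STK. Markers of non-classical monocytes summed to 1843 and 875 CPM. Doublet scoring marked 18 and 15 members. How much this RNA adds to any one result was not tested. Below, the value without these cells is given only for genes past 1.5-fold that changed direction and for the granule gene list. Another 32 named genes moved outside their counting interval without these cells. The median log2 ratio of the MHC class II and dendritic list, for example, was 0.74 without them and 0.50 with them.

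Members formed a smaller share of the STK library. They were 4.76% of DMSO cells (4.37% to 5.17%) and 3.78% of STK cells (3.43% to 4.16%), a ratio of 0.794 (0.700 to 0.901). Within female-scored cells the shares were 3.90% and 3.88%, with a ratio of 0.994 (0.711 to 1.39). Within male-scored cells they were 5.27% and 3.64%, with a ratio of 0.690 (0.522 to 0.913). The female-scored DMSO value rests on 40 members, and whether the sexes differed was not tested.

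The limit on interferon genes kept a similar part of the classical monocytes in both libraries. Of the cells meeting the other terms, 531 of 649 DMSO cells (81.8%) and 410 of 486 STK cells (84.4%) fell under the limit, with a ratio of 1.03 (0.978 to 1.09). After thinning to 2000 UMIs, 63.6% of DMSO and 73.8% of STK classical monocytes held no UMI of the 4 interferon genes, a ratio of 1.16 (1.07 to 1.26). The limit cuts a continuous range: 23 DMSO and 10 STK cells lay just inside it at 4 UMIs, and 19 and 8 just outside at 5. At the other edges, 49 and 37 members held exactly 2 UMIs of Ly6c2, 56 and 50 cells missed with 1, and 104 and 62 cells missed through a single UMI of Ace.

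A total of 6092 genes had 100 or more UMIs summed over members of both groups. Of these, 324 (5.32%) were at least 1.5-fold higher in STK members and 294 (4.83%) at least 1.5-fold lower. The median log2 ratio over all of them was 0.01. Of the higher genes, 256 were also higher in both sexes taken separately, and of the lower genes, 228 were lower in both.

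The genes with the lowest ratios in STK members included the HSP70 pair and the immediate-early genes Atf3, Jun and Fos. Hspa1b, an inducible HSP70 chaperone, stood at 711 CPM in DMSO members and 16.4 CPM in STK members (ratio 0.023, interval 0.017 to 0.031). Its near-identical neighbour Hspa1a, whose reads may be shared with Hspa1b, stood at 847 and 26.1 CPM. Fos, a subunit of the AP-1 dimer, had 4462 CPM in DMSO members and 1613 in STK members (ratio 0.362, interval 0.350 to 0.374). Its partner Jun had 1284 and 352 CPM (ratio 0.274, interval 0.255 to 0.294). The stress-induced factor Atf3 had 2102 and 555 CPM (ratio 0.264, interval 0.25 to 0.279).

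**Figure D1:**
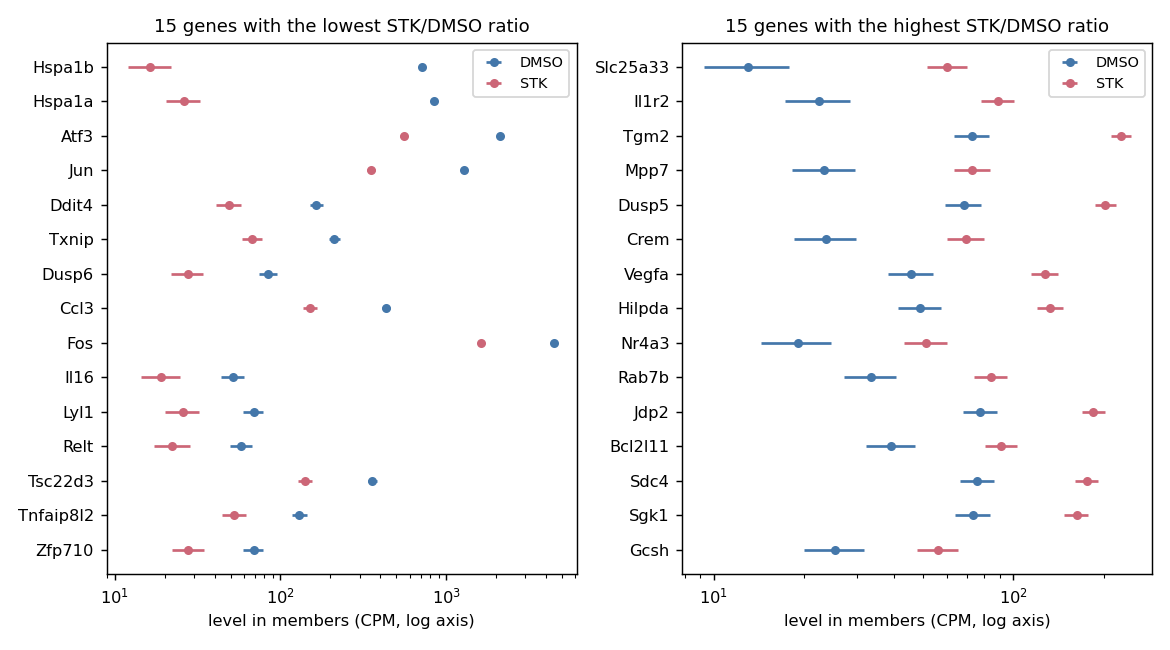
Levels in members (CPM, log axis) of the 15 genes with the lowest and the 15 with the highest STK to DMSO ratio that met the naming rule, with exact Poisson 95% intervals for counting error and 1 library per point. Hspa1b is the lowest by ratio, at 711 CPM in DMSO and 16.4 CPM in STK, and Slc25a33, a mitochondrial pyrimidine carrier, the highest, with a ratio of 4.62.

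The difference in these genes was present in both sexes. In female-scored members Fos stood at 4215 CPM in DMSO and 1629 CPM in STK, and in male-scored members at 4313 and 1639 CPM. Jun stood at 1226 and 417 CPM in females and at 1302 and 306 CPM in males. Hspa1a stood at 189 and 28.7 CPM in females and at 885 and 23.4 CPM in males, so the DMSO males held more of it than the DMSO females.

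The AP-1 and immediate-early list was split. Of its 25 measured members, 9 were at least 1.5-fold lower and 7 at least 1.5-fold higher, with a median log2 ratio of -0.25, against 0.28 for the same genes in all other cells. Nr4a1, which non-classical monocytes need, stood at 1502 and 624 CPM, while in all other cells its ratio was 1.07. Dusp1, a phosphatase that shuts off MAP kinases, stood at 2987 and 1312 CPM, and Klf2, a quiescence factor, at 998 and 503 CPM. On the other side, the related nuclear receptor Nr4a3 stood at 19.1 and 51.1 CPM, Fosb at 97.3 and 175 CPM, and the ERK phosphatase Dusp5 at 68.2 and 203 CPM.

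Among the 20 measured heat shock chaperones, 5 were lower and 1 higher. The list's median log2 ratio was -0.31, against -0.32 for the same genes in all other cells. Hspa1a and Hspa1b had ratios of 0.098 and 0.080 in all other cells, so their lower level was not particular to members. Besides the HSP70 pair, the co-chaperone Dnajb1 stood at 127 and 68.9 CPM and Hsph1 at 107 and 52.2 CPM. Within sexes Hsph1 stood at 40.6 and 52.9 CPM in females and at 120 and 37.4 CPM in males, and the list's median log2 ratio was 0.26 in females and -0.50 in males. The small chaperone Hspb1 was the one higher gene, at 7.02 and 30.3 CPM.

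Fos, Jun, Atf3 and Hspa1a were also lower in the neighbouring cells of the STK library, by other amounts. Fos had ratios of 0.467 (0.436 to 0.498) in interferon-high classical monocytes, 0.458 (0.419 to 0.499) in non-classical monocytes and 0.540 (0.529 to 0.551) in C1q macrophages, beside 0.362 in members and 0.631 in all other cells. Jun had ratios of 0.335, 0.415 and 0.513 in those groups. Nr4a1 had a ratio of 0.486 (0.426 to 0.555) in interferon-high classical monocytes, 0.590 in non-classical monocytes and 0.930 in C1q macrophages, beside 0.415 in members. The counting intervals of members and C1q macrophages did not overlap for Fos, but replicate error is unknown, so these are values of 2 libraries side by side.

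**Figure D2:**
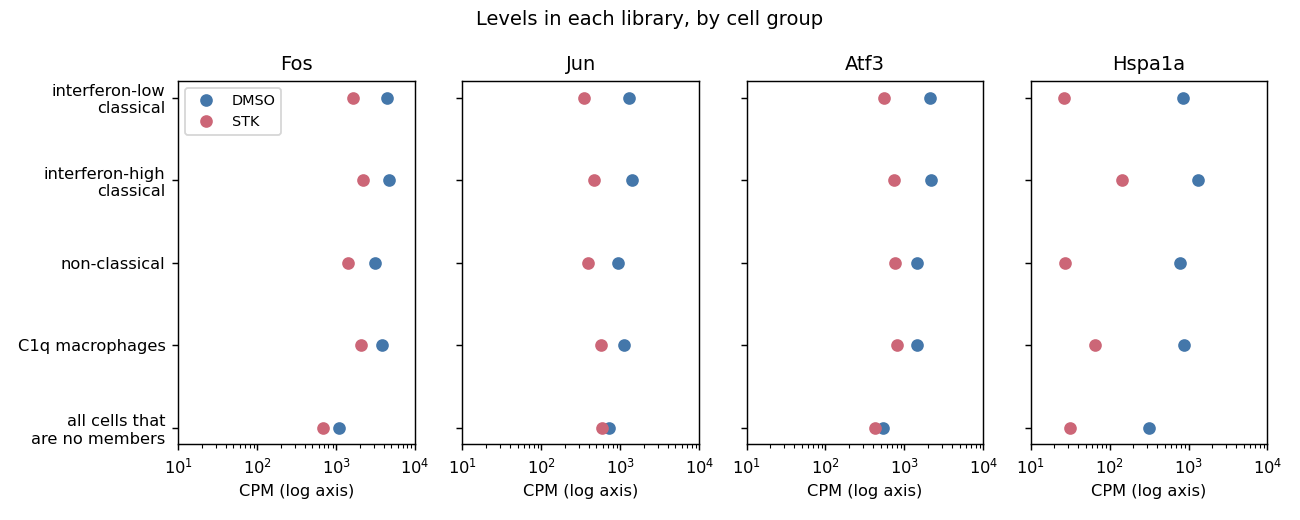
Levels (CPM, log axis) of Fos, Jun, Atf3 and Hspa1a in the DMSO and STK libraries, in interferon-low classical monocytes, in 3 neighbouring cell groups and in all cells that are no members, which include those groups. Every STK point lies to the left of its DMSO point, and for Fos the members stand at 4462 and 1613 CPM.

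Genes tied to glucocorticoid and metabolic stress were among the lowest as well. Of 15 measured, 6 were lower and 4 higher. The mTOR inhibitor Ddit4 stood at 164 and 48.7 CPM, the thioredoxin inhibitor Txnip at 212 and 67.5 CPM, and Tsc22d3, known as GILZ, at 358 and 140 CPM. The decoy interleukin-1 receptor Il1r2 went the other way, at 22.4 and 88.7 CPM, as did the kinase Sgk1, at 73.2 and 162 CPM. Heme oxygenase Hmox1 stood at 313 and 130 CPM while its ratio in all other cells was 1.10.

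Chemokines were split. Of 25 measured inflammatory cytokines and chemokines, 9 were higher and 2 lower, with a median log2 ratio of 0.26, against 0.48 in all other cells. Ccl3, an inflammatory chemokine, stood at 432 and 151 CPM, and Ccl4 at 1249 and 750 CPM. Ccl2, the main ligand of Ccr2, stood at 155 and 412 CPM, but 1 STK cell held 22.6% of its UMIs, and without the top cell of each library the ratio was 2.33 in place of 2.66. Ccl7, another Ccr2 ligand, stood at 43.1 and 156 CPM, with 42.6% of the STK UMIs in 1 cell and a ratio of 3.07 without the top cells. Il1b stood at 1812 and 2959 CPM and the inflammasome sensor Nlrp3 at 62.2 and 134 CPM.

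Some genes of the passage to macrophages were higher. Of 23 measured macrophage differentiation genes, 7 were higher and none lower, with a median log2 ratio of 0.37, against 0.39 in all other cells. The receptor kinase Axl stood at 67.5 and 113 CPM and the adhesion molecule Vcam1 at 20.7 and 52.9 CPM. Outside this list, tissue transglutaminase Tgm2 stood at 72.9 and 229 CPM and the angiogenic factor Vegfa at 45.5 and 128 CPM. Spp1, a gene of tumour macrophages, stood at 97.6 and 25.4 CPM, but 54.5% of its DMSO UMIs lay in 1 cell, and its ratio in all other cells was 2.87.

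Most genes of the classical monocyte outside the rule differed by less than 1.5-fold between whole libraries, and the list's median was lower within each sex. Of 19 measured, 2 were higher, 1 was lower and 16 differed by less than 1.5-fold. Their median log2 ratio was -0.24, and it was -0.61 in female-scored and -0.42 in male-scored members. Hp had ratios of 0.506 in females and 0.344 in males. Gda, which is not on the list, had 0.373 and 0.518. Thrombospondin 1 (Thbs1) stood at 849 and 1598 CPM and the lectin Clec4e at 227 and 357 CPM. Among genes of the passage to non-classical monocytes, 2 of 13 were lower and 1 higher, with a median log2 ratio of -0.43, while the same genes had a median of -0.01 in all other cells. Non-classical monocytes themselves were 2.04% of DMSO cells and 0.885% of STK cells, a ratio of 0.435 (0.343 to 0.551). The ratio was 0.248 (0.158 to 0.389) in female-scored and 0.186 (0.068 to 0.510) in male-scored cells. The male-scored STK value rests on 4 cells of 1621.

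**Figure D3:**
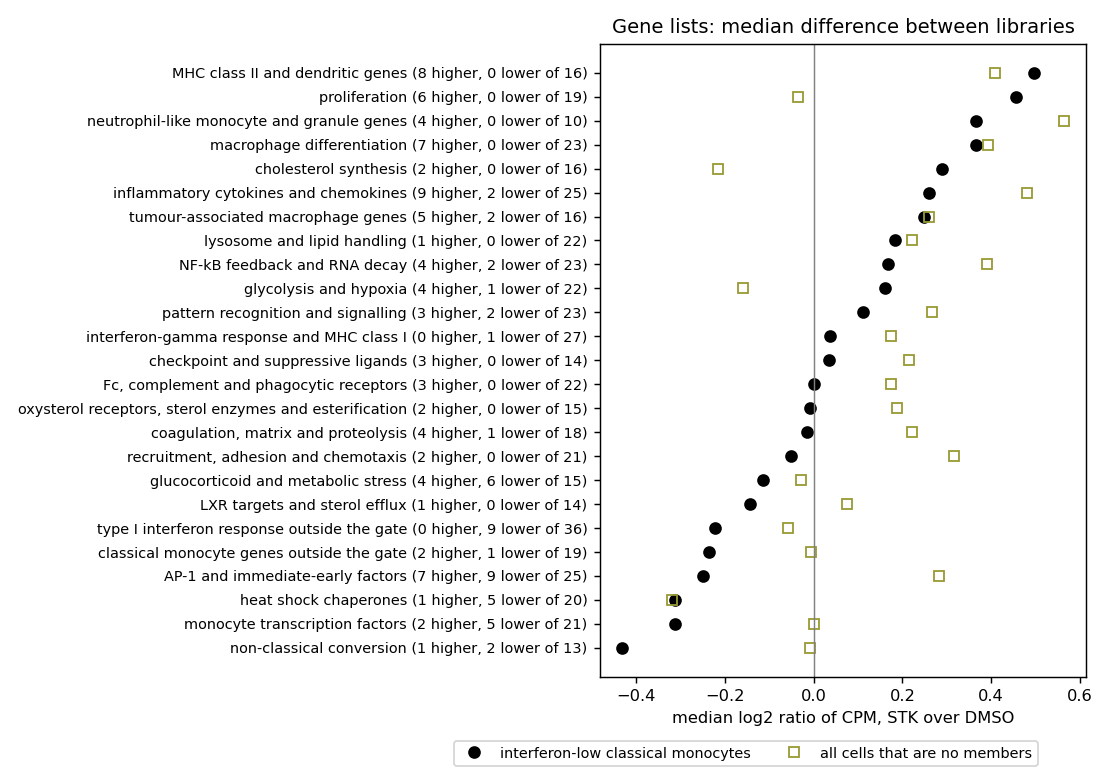
Median log2 ratio of CPM, STK over DMSO, for each gene list other than the marker lists of other cell types, in interferon-low classical monocytes (filled circles) and in all cells that are no members (open squares), with the numbers of genes 1.5-fold higher and lower among those measured. Of the lists drawn, MHC class II and dendritic genes have the highest median in members, 0.50, and non-classical conversion genes the lowest, -0.43.

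Interferon genes that the rule did not use were lower or level. Of 36 measured type I interferon response genes, 9 were lower and none higher, with a median log2 ratio of -0.22, against -0.06 in all other cells. The rule holds members under a limit on related genes, so the range left to these genes was cut. Slfn4 stood at 91.3 and 43.8 CPM, Herc6 at 53.5 and 26.4 CPM and the RNA sensor Oas2 at 53.1 and 30.6 CPM. Interferon-gamma response and MHC class I genes were level, with 1 of 27 lower and none higher.

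Most receptors and enzymes of sterols were close to level. Gpr132, a G protein-coupled receptor of lipids, had 103 and 180 CPM (ratio 1.74, interval 1.51 to 2.01), beside 2.50 in all other cells. Its ratio was 2.01 (1.29 to 3.31) in female-scored and 1.28 (0.928 to 1.75) in male-scored members. After thinning it was seen in 18.5% of DMSO and 31.9% of STK members, while T cells showed 16.6% and 35.8%. Soat1, which esterifies cholesterol, had 119 and 127 CPM (ratio 1.06, interval 0.917 to 1.23), and Soat2 had 6 and 7 UMIs. Of 15 measured genes of this list, 2 were higher and none lower, and of 16 cholesterol synthesis genes, 2 were higher and none lower.

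MHC class II genes varied widely among members. Of 16 measured MHC class II and dendritic genes, 8 were higher in STK members and none lower, with a median log2 ratio of 0.50, against 0.41 in all other cells. H2-Aa stood at 2213 and 4304 CPM, H2-Ab1 at 1611 and 2974 CPM, and the invariant chain Cd74, which holds their peptide groove, at 7489 and 12877 CPM. These means cover a wide range of cells. After thinning, the summed UMIs of H2-Aa, H2-Ab1, H2-Eb1 and Cd74 ran from 0 to 216 per DMSO member, with a median of 2, and from 0 to 227 per STK member, with a median of 11.

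At least 10 of these UMIs, a limit set after the values were seen, were held by 34.0% of DMSO members (29.9% to 38.2%) and 51.5% of STK members (46.5% to 56.4%). T cells, which should lack MHC class II, reached this level in 3.78% and 3.88% of cells. The limit cuts a range: 63 DMSO and 53 STK members lay between 5 and 15 UMIs. The sexes differed inside each library. None of the 40 DMSO female-scored members reached the limit, which allows a share of up to 7.50% (3 counts of 40), against 42.2% of DMSO males. In the STK library it was 46.1% of females and 77.6% of males. H2-Ab1 had 3 UMIs in all DMSO female members and stood at 2123 CPM in DMSO males, 2547 CPM in STK females and 5671 CPM in STK males. The gene was detected in other female-scored DMSO cells, at 2793 CPM in C1q macrophages and 1639 CPM in B cells. DMSO females were also below DMSO males in C1q macrophages, where males stood at 5888 CPM. In non-classical monocytes DMSO females stood at 485 CPM and males at 1010 CPM. B cells went the other way, with DMSO males at 1300 CPM.

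**Figure D4:**
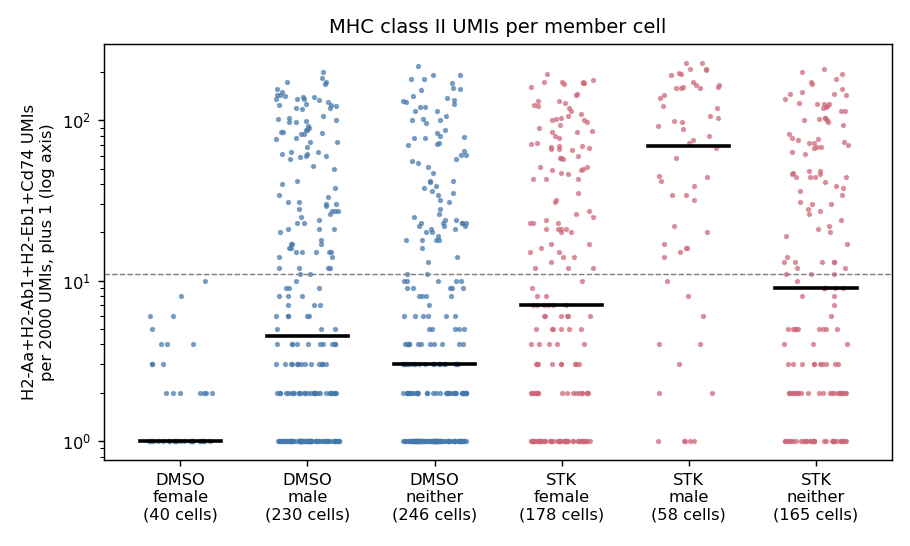
Summed UMIs of H2-Aa, H2-Ab1, H2-Eb1 and Cd74 per member after thinning to 2000 UMIs (plus 1, log axis), by library and by the sex scored from Xist and Y-linked genes, with black bars at the medians and a dashed line at 10 UMIs. No DMSO female-scored member reaches the line, while 46.1% of STK females and 77.6% of STK males do.

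Many genes differed between cells high and low in MHC class II, and in the same direction in both libraries. Members were divided within each library into 3 equal parts by these UMIs, and the highest part was compared with the lowest, 174 cells each in DMSO and 136 each in STK. Of 3506 genes compared, 205 were at least 1.5-fold higher in the MHC class II high cells of both libraries, 245 at least 1.5-fold lower in both, and 83 differed in opposite directions. Ly6a, the Sca-1 antigen, stood at 20.1 CPM in low and 497 CPM in high DMSO cells, and at 25.7 and 857 CPM in STK cells. The peptide-loading gene H2-DMb1 stood at 71.8 and 721 CPM in DMSO and at 51.5 and 1026 CPM in STK. Ms4a7, Axl, Aif1, the scavenger chemokine Cxcl16 and the complement receptor C3ar1 were also higher in both.

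The MHC class II low cells held the granule genes. S100a8, an alarmin of neutrophils and monocytes, stood at 6270 CPM in low and 66.1 CPM in high DMSO cells, and at 4765 and 0 CPM in STK cells. Ngp stood at 2761 and 0 CPM in DMSO and at 2904 and 0 CPM in STK. Few cells carried this RNA: S100a8 was detected in 35 DMSO and 19 STK members, so these means describe a small number of cells. The sexes were unevenly placed, with 95 males and no females among the high DMSO cells and 52 females and 33 males among the high STK cells. More widely detected classical monocyte genes also differed between members below and above the MHC class II limit. Hp stood at 1038 CPM below and 200 CPM above in DMSO, and at 954 and 195 CPM in STK. The rule gene Chil3 stood at 2021 and 554 CPM in DMSO and at 2051 and 529 CPM in STK. F13a1 stood at 722 and 156 CPM in DMSO and at 629 and 177 CPM in STK. Ly6c2 was level, and Ccr2 was higher above, at 373 and 502 CPM in DMSO and 420 and 441 CPM in STK.

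**Figure D5:**
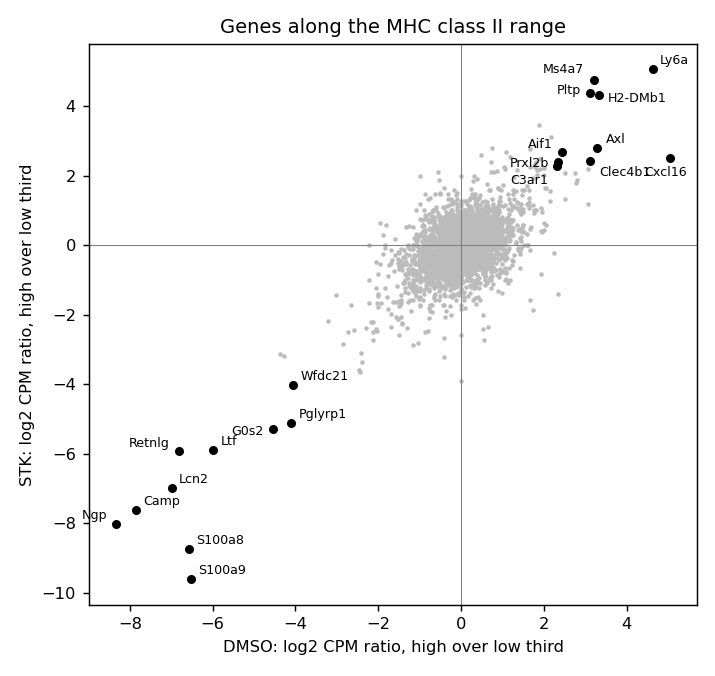
Log2 ratio of CPM between the members highest and lowest in MHC class II UMIs, DMSO library on the x axis and STK library on the y axis, for 3506 genes (grey), with the 10 genes most alike in each direction in black, genes at 0 set to the floor of 3 UMIs. Ly6a lies far up in both libraries and Ngp far down in both.

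The library difference in Fos, Atf3 and the HSP70 pair held on both sides of the MHC class II limit. Below it, with 346 DMSO and 198 STK cells, Fos stood at 4365 and 1420 CPM, and above it, with 178 and 210 cells, at 4592 and 1778 CPM. Atf3 stood at 2133 and 548 CPM below and at 2043 and 562 CPM above. Hspa1a stood at 729 and 31.5 CPM below and at 1041 and 21.7 CPM above, and Hspa1b at 569 and 25.3 CPM and at 943 and 8.94 CPM. The co-chaperone Dnajb1 had a ratio of 0.759 (0.598 to 0.958) below, short of 1.5-fold, and 0.355 (0.270 to 0.464) above. The immediate-early list genes Nr4a3 and Dusp5 were higher in STK members on both sides. Among higher genes, Ccl2 stood at 129 and 497 CPM below and at 200.1 and 342 CPM above.

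Granule and dividing-cell genes had positive medians over all STK members, which turned in both sexes for the granule genes and in males for proliferation. Of 10 measured neutrophil-like monocyte and granule genes, 4 were higher, with a median log2 ratio of 0.37. The median was -1.66 in female-scored and -1.84 in male-scored members, and -0.36 without the members holding RNA of other cell types. The medians within sexes rest on few carrying cells. Members with at least 50 UMIs of neutrophil markers numbered 4 in DMSO and 4 in STK females. They numbered 1 and 0 among males, and 11 and 7 among members scored as neither sex. Of 19 measured proliferation genes, 6 were higher and none lower, with a median of 0.46. Mki67, which marks dividing cells, stood at 27.7 and 47.7 CPM and the replication helicase gene Mcm6 at 27.7 and 44.9 CPM. The median over proliferation genes was 0.30 in female-scored and -0.41 in male-scored members (log2).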

How the data were processed

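Both libraries were made with the 10x Genomics 5-prime chemistry from CD45-positive tumour cells, per the labels' protocols. The deposited values are raw UMI counts for each gene in each barcode, written by Cell Ranger 6.0.2 per the file headers, on GRCm38 per the submitters' processing notes. Cells kept held 500 or more UMIs and 250 or more genes, with mitochondrial UMIs up to 10%. Doublets were scored with Scrublet (scanpy 1.11.5) at an expected rate of 8% and a score limit of 0.25, set after the automatic limit marked none in one library, and were kept in the main values. Counts were summed over members per library and scaled to CPM. Ratios have exact conditional binomial intervals, ratios of shares log-normal intervals, and shares Clopper-Pearson intervals, at 95%, for counting error only; PCR and droplet effects are not covered. The calculation was tested on simulated data. The members, the gene lists and the rule for names were chosen with earlier results of these data known. Named genes were the 15 highest and 15 lowest by ratio, given 50 CPM and 100 UMIs or more in whichever library was higher and at most 10% of its UMIs in 1 cell, the genes of the rule, Plac8, Gpr132, Soat1 and Soat2, and from each list up to 4 members furthest from equal, with the 10 genes highest in members against all other cells. Other list members in the text, and Hspb1, Mki67, Dusp1, Fosb, Ccl4, Il1b and Mcm6, were chosen after their values were seen. Alternatives were stricter and thinned gates, other interferon limits, doublet and mitochondrial limits, each sex alone, other scaling and other minimum counts. Of the listed genes, 5 had no matching row and were not used here.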

Additional observations from a re-analysis of the deposited data

Results flagged for a closer look

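For 5 named genes the STK to DMSO ratio in female-scored members and that in male-scored members lay on opposite sides of equality, each with a counting interval that excluded 1. The difference between the sexes was not tested. Ly6c2, the gene that defines classical monocytes, had a ratio of 0.723 (0.665 to 0.787) in females and 1.28 (1.20 to 1.37) in males, and 0.982 in all members. Rsad2, an antiviral gene of the rule, had 0.335 in females, from 9 and 18 UMIs, and 2.63 in males, from 28 and 22 UMIs. The rule used both Ly6c2 and Rsad2 to choose members, so the range left to their levels was cut. The female ratios rest on 40 DMSO members. The other 3 are hepatocyte or tumour genes: Afp had 5.78 in females and 0.220 in males, Alb 5.09 and 0.135, and Fgb 11.3 and 0.263. Their UMIs lay in few cells: 9 DMSO and 10 STK members held at least 50 UMIs of this group.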

How the results depend on the processing

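No paired analysis was possible because each group was 1 library, and for the same reason no replicate could be left out. The STK to DMSO ratio of the members' share was 0.794, and it was 0.699 when cells were thinned to 2000 UMIs before the rule, 0.994 in female-scored cells and 0.690 in male-scored cells. The ratio of the interferon-low part was 1.03, and 0.967 in male-scored cells. The 324 higher genes (5.32% of those measured) became 203 in male-scored cells (7.43% of 2731) and 461 in female-scored cells (19.8% of 2323), and with minimums of 10 and 300 UMIs they became 1232 and 133. The 294 lower genes (4.83%) became 1215 and 98 with those minimums, and were 9.64% of genes in female-scored and 10.9% in male-scored cells. All other alternatives kept these 4 results within the counting interval or within 1.5 times. All 30 genes with the highest and lowest ratios kept their direction in every alternative run, and all but Ccl3, Dusp6 and Mpp7 (females), Gcsh and Hilpda (males) and Sdc4 (thinned) stayed past 1.5-fold. Among values past 1.5-fold, those that changed direction were as follows. Of named genes within 1.5-fold, up to 11 turned in one alternative, among them S100a9 in both sexes and Afp in males. With thinning, Alb had 0.183, Fgb 0.468, Rbp4 0.312 and Gzma 0.816. Without doublet-scored cells, Alb had 0.961, Fgb 0.794, Gzma 0.378, Nkg7 0.945, and the NK marker median was -0.082. In female-scored members, Trem1 had 0.631, Zc3h12a 0.992, Hsph1 1.30, Ltf 0.329, Ngp 0.348, Camp 0.308, Lcn2 0.379, Dgat1 0.671 and Stat2 1.03. In male-scored members, Alb had 0.135, Fgb 0.263, Slc16a3 0.838, Nkg7 0.820, Lcn2 0.279, and the NK marker median was -0.33. With the mean of per-cell CPM, Alb had 0.841. Without members holding RNA of other cell types, an alternative chosen after seeing the data, Alb had 0.507, Fgb 0.837, Rbp4 0.506 and Lcn2 0.244. The cause of these changes was not tested. Leaving out the top cell of each gene, also chosen after seeing the data, reversed no named gene past 1.5-fold.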

Other observations

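Members also differed along a second range, the UMIs of Fos, Jun, Egr1 and Ier2. After thinning, the median was 11 UMIs in DMSO members and 4 in STK members. Comparing the highest with the lowest of 3 equal parts within each library, 69 of 3506 genes were at least 1.5-fold higher in both libraries, 74 at least 1.5-fold lower in both, and 97 differed in opposite directions. The RNA-decay factor Zfp36 stood at 2006 CPM in low and 5684 CPM in high DMSO cells, and at 1040 and 2110 CPM in STK cells. Klf2 stood at 716 and 1385 CPM in DMSO and at 368 and 735 CPM in STK. Acod1, which makes itaconate, was lower in the high cells of both, at 69.0 and 20.1 CPM in DMSO and 91.9 and 22.1 CPM in STK.

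Areg, the growth factor amphiregulin, did not meet the naming rule because 1 STK cell held 25.8% of its UMIs, and it was chosen after its values were seen. It had 3 UMIs in DMSO members and 151 in STK members, in 3 and 30 cells, a ratio of 52.4 with a counting interval of 17.6 to 257. The DMSO count lies at the floor of 3 UMIs, so the size of the ratio is uncertain. Areg was higher in other STK cells too. Its ratio was 10.1 in interferon-high classical monocytes, 8.73 in C1q macrophages and 3.22 in all other cells. Non-classical monocytes held 0 UMIs in DMSO and 10 in STK.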
